A study of Mus musculus with 30 samples.

Results

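Spared nerve injury (SNI) was compared with a sham operation in the nucleus accumbens of mice that had received tianeptine. The comparison takes the 6 libraries labelled TIAN-SNI and the 6 labelled TIAN-Sham, 12 of the 30 libraries of the series, chosen by their labels and by no measured value. All animals were male C57Bl/6J mice, and each library came from both accumbens of 1 animal. They underwent tibial SNI or sham surgery and, after 4 weeks, were injected intraperitoneally with 30 mg/kg tianeptine 2 times a day for 3 weeks, so both groups carried the drug. The SNI and sham mice on saline (5 and 5 libraries) and on desipramine at 15 mg/kg (4 and 4 libraries) served only to ask whether the injury effect differed by treatment. In tibial SNI some branches of the sciatic nerve are cut while another is spared, which gives a lasting hypersensitivity to touch, a model of neuropathic pain. The labels do not give the ages of the animals or the time between the last injection and the dissection.

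The nucleus accumbens is the ventral part of the striatum, where dopamine from the midbrain and glutamate from cortex, amygdala and hippocampus meet on medium spiny neurons, the GABAergic output cells of the region. It takes part in reward, in motivation and in the affective side of pain. Tianeptine is an antidepressant that activates the mu-opioid receptor, the product of Oprm1, and medium spiny neurons and interneurons of the accumbens carry this receptor as well as the opioid peptides made from Penk and Pdyn.

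Sequencing was of polyadenylated RNA. Replicates 1 to 4 of each tianeptine group form a first set of libraries with 26400738 to 37688334 counts each, and replicates 5 and 6 form a second set with 101544459 to 107012259. Markers of the labelled tissue were present throughout: the 28 tested medium spiny neuron markers summed to 7925 to 13230 CPM (counts scaled to library size) in sham and to 7283 to 13340 CPM in SNI. Mitochondrial transcripts took 1.16 to 1.98% of the counts in sham and 1.14 to 1.90% in SNI. Sham replicates 3, 4 and 6 stood apart, and the results that rest on them are given with and without them. Sham replicates 3 and 4 held 0.387% and 0.203% of their counts on an annotated ribosomal RNA gene, against 0.0312 to 0.0854% in the other 4 sham and 0.0339 to 0.0588% in the 6 SNI libraries. Such shares were not particular to tianeptine sham mice. Desipramine SNI replicates 2 and 3 held 0.198% and 0.203%, against 0.0293 to 0.0972% in the other desipramine libraries. In sham replicate 6 the 19 tested markers of choroid plexus and ependyma summed to 1343 CPM, against a sham median of 208.9 and a highest SNI value of 232.5. Within each library set, sample numbers in the library names follow one another within each group. The labels do not say what these numbers record. Any effect of an order that followed them could not be told apart from injury.

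No gene differed between SNI and sham mice on tianeptine at an adjusted p under 0.05 (0 of 23736 genes tested, 0%, edgeR quasi-likelihood test, Benjamini-Hochberg adjustment). The smallest adjusted p was 0.787. At an unadjusted p under 0.05 there were 287 genes, 1.21% of those tested, where 1187 would be expected if no gene differed and genes were independent. Of these, 72 were higher in SNI (0.303% of genes tested) and 215 lower (0.906%). Without sham replicate 5 the unadjusted count was 444, and without SNI replicate 4 it was 482, again with 0 genes passing. DESeq2 called 14 genes, all lower in SNI, and limma-voom called 0, with 264 and 258 genes at an unadjusted p under 0.05. In all 14 genes that DESeq2 called, the highest sham library was replicate 3. Across all genes tested, 50.6% had a log2 fold change above 0, and the median log2 fold change was 0.00105. The standard error (SE) of a log2 fold change had a median of 0.12, and its 95% interval lay within 1 log2 unit on either side of 0 for 94% of genes and within 0.5 for 71.9%. For most genes the interval thus excluded a 2-fold change in either direction, and differences within the interval were not detectable at this spread.

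**Figure D1:**
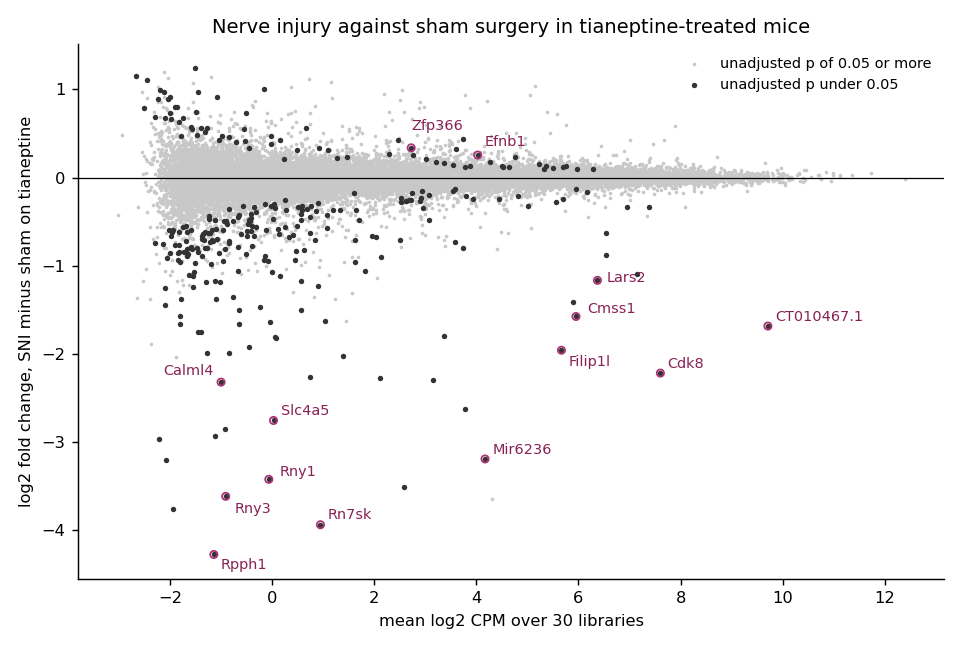
Log2 fold change of SNI against sham on tianeptine (vertical axis) against the mean log2 CPM over the 30 libraries (horizontal axis), 1 point per gene tested, with genes at an unadjusted p under 0.05 in black. The points far from 0 lie below it: the structural RNA genes Rpph1, Rn7sk, Rny1 and Rny3, the gene Cdk8 and the choroid plexus marker Slc4a5, none of which passed the adjusted threshold.

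The 2 smallest p-values, those of Rpph1 and Rn7sk, and several of the largest differences belonged to short structural RNA genes that RNA polymerase III transcribes and that carry no poly(A) tail. Rpph1 encodes the RNA of RNase P, which trims the 5′ ends of tRNA precursors. Rn7sk encodes 7SK, which holds the elongation factor P-TEFb in an inactive complex, and Rn7s1 and Rn7s2 encode the RNA of the signal recognition particle. Rny1 and Rny3 encode Y RNAs, small partners of the Ro protein. The sequences of the Y RNAs and of the end of 7SK are given from GENCODE M21 (mm10), 5′ to 3′, because they show the kind of transcript that the leading genes encode, with the closing run of T in capitals. Rny1 lies at chr6:47788069-47788180 on the minus strand, Rny3 at chr6:47781624-47781725 on the plus strand, and Rn7sk at chr9:78175303-78175633 on the minus strand, of which the last 40 of 331 bases are shown.
Rny1: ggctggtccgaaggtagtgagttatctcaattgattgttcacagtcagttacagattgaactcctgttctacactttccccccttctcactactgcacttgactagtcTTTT
Rny3: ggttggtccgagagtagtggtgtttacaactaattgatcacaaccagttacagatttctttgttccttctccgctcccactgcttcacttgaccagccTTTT
Rn7sk: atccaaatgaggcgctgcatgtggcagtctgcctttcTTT
The letters TTT close the annotated transcript of 3 of the 6 genes named above, and of 2.88% of the 100343 annotated transcripts of the genes tested.

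Rn7sk stood at 1.10, 1.44, 20.4, 10.5, 1.96 and 0.194 CPM in sham replicates 1 to 6. In SNI replicates 1 to 6 it stood at 0.655, 0.346, 0.229, 0.537, 0.211 and 0.148 CPM. Sham replicates 3 and 4 were far above the rest, the 3 next sham libraries were also above all SNI libraries, and sham replicate 6 lay among the SNI values. The log2 fold change was -3.94 ± 0.83 (SE), with an unadjusted p of 6.63e-05 and an adjusted p of 0.787 in edgeR. DESeq2 gave an adjusted p of 0.00137. Without sham replicates 3 and 4 the log2 fold change was -1.89, and without replicates 3, 4 and 6 it was -2.26.

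Rpph1, at chr14:50807449-50807767 on the minus strand, had the smallest p. Its levels were 0.142, 0.407, 5.84, 2.02, 0.301 and 0.0648 CPM in the sham libraries and between 0 and 0.0798 CPM in the SNI libraries, for a log2 fold change of -4.28 ± 0.90. Only sham replicate 6 overlapped the SNI range. Leaving out sham replicate 6 moved the log2 fold change to -4.78, and leaving out replicates 3 and 4 moved it to -2.04. Ccnb1ip1, which encodes a ubiquitin ligase known from meiotic recombination, had nearly the same profile as Rpph1, with 5.84 and 2.19 CPM in sham replicates 3 and 4. It shares 284 bases with Rpph1 on the same strand and an identical run of 233 bases with its transcript, so reads of the pair cannot be assigned to 1 gene with certainty.

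The Y RNA genes followed the same libraries. Rny1 reached 10.1 and 6.41 CPM in sham replicates 3 and 4, lay between 0.167 and 0.814 CPM in the other 4 sham libraries and between 0.115 and 0.386 CPM in SNI (log2 fold change -3.42 ± 0.91). Rny3 reached 6.43 and 2.78 CPM in the same sham libraries, lay between 0.00926 and 0.407 CPM in the other sham libraries and between 0.0458 and 0.179 CPM in SNI (log2 fold change -3.62 ± 1.03). These values, with sham replicates 3 and 4 left out, were -0.54 for Rny1 and -0.58 for Rny3. In the second library set alone the log2 fold change of Rny1 was 0.10. Rn7s1 and Rn7s2 (log2 fold changes -3.20 ± 0.81 and -3.76 ± 0.92) have identical annotated sequences of 300 bases, so their counts are uncertain individually. Without sham replicates 3 and 4 neither passed the expression filter.

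**Figure D2:**
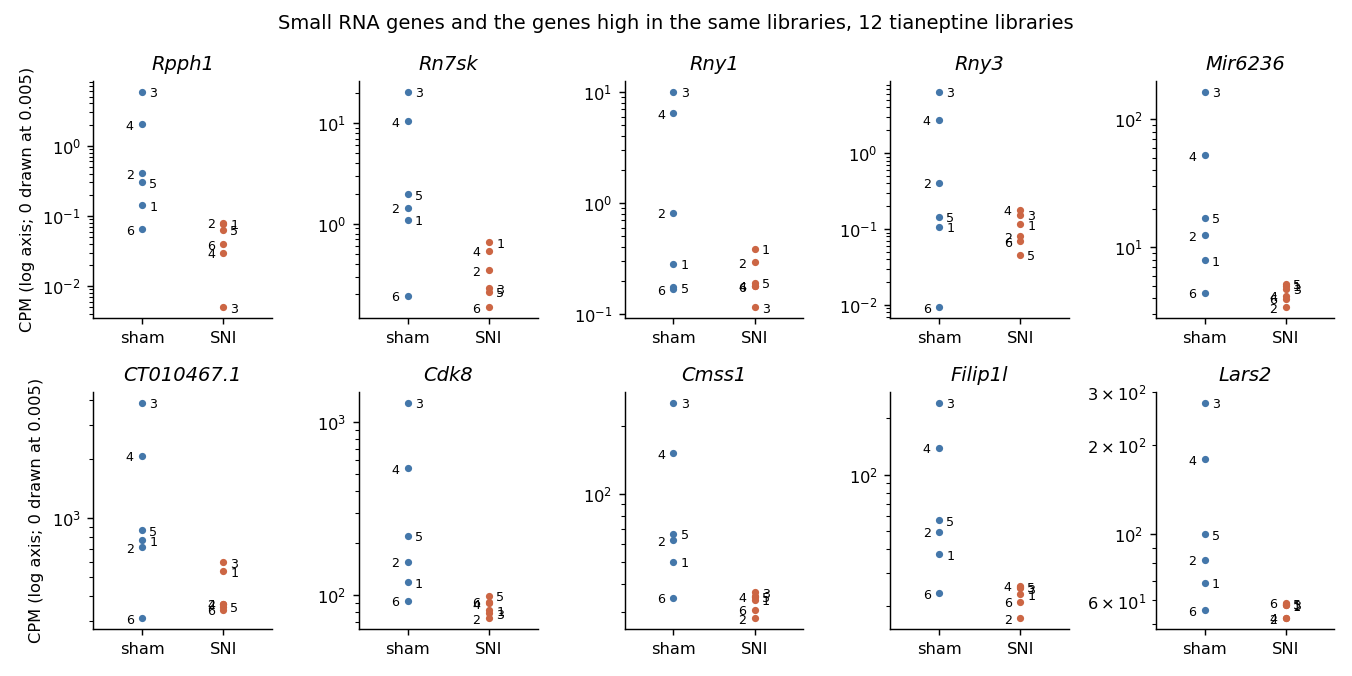
CPM on log axes of 10 genes in the 6 sham and the 6 SNI libraries on tianeptine, 1 point per library with its replicate number. Sham replicates 3 and 4 are the highest of the 12 libraries in every panel, and sham replicate 6 lies within or below the range of the SNI libraries.

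A list of the 174 tested genes annotated as ribosomal, small nuclear, nucleolar or other structural RNA was added after the values were seen. Of these genes 106 were higher and 68 lower in SNI, 8 of them lower at an unadjusted p under 0.05 and 0 higher (0.906% and 0.303% over all genes tested), and their median log2 fold change was 0.04, against 50.6% higher and a median of 0.00105 over all genes tested. The annotated ribosomal RNA gene CT010467.1 (chr17:39846353-39848827, minus strand) stood at 3888 and 2078 CPM in sham replicates 3 and 4, at 309 to 868 CPM in the other sham libraries and at 340 to 595 CPM in SNI (log2 fold change -1.68 ± 0.49). It was -0.66 when sham replicates 3 and 4 were left out.

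Among the named genes with an unadjusted p under 0.05 and a mean log2 CPM of 1 or more, Mir6236 had the largest difference. This gene lies at chr9:110281287-110281409 on the plus strand. Mir6236 stood at 164 and 52.1 CPM in sham replicates 3 and 4 and at 4.41 to 17.1 CPM in the other sham libraries. In SNI it stood at 3.41 to 5.18 CPM, for a log2 fold change of -3.19 ± 0.74. Without sham replicates 3 and 4 the log2 fold change was -1.19, and without 3, 4 and 6 it was -1.465. Libraries of polyadenylated RNA are not made to measure mature miRNA, and the origin of the reads counted for Mir6236 was not tested. The mature sequence that RefSeq (GRCm38) places at chr9:110281353-110281371, with bases 2 to 8 in capitals, is given to identify the locus.
mmu-miR-6236: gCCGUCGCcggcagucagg

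Several longer, protein-coding genes had sham replicates 3 and 4 on top as well. Cdk8 (chr5:146231230-146302874, plus strand) encodes a kinase of the Mediator complex. Its levels in sham replicates 1 to 6 were 119, 156, 1294, 541, 219 and 92.7 CPM, and in SNI replicates 1 to 6 they were 81.9, 73.8, 78.8, 89.9, 99.4 and 91.8 CPM. The SNI libraries lay close together and sham replicate 6 fell among them, while the 5 other sham libraries were all higher. The log2 fold change of Cdk8 was -2.22 ± 0.51 (95% interval -3.26 to -1.17), with an adjusted p of 0.826 in edgeR and of 0.0208 in DESeq2. Leaving out sham replicates 3 and 4 gave -0.71.

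Cmss1 and Filip1l overlap on opposite strands of chromosome 16 over 220034 bases, and the strand setting of the counting is not given, so reads of one may count for the other. Cmss1 had 253 and 151 CPM in sham replicates 3 and 4 against 28.3 to 36.8 CPM in SNI (log2 fold change -1.58 ± 0.38). Filip1l had 243 and 139 CPM in those sham libraries against 17.1 to 25.5 CPM in SNI (log2 fold change -1.96 ± 0.48). Lars2, the mitochondrial leucyl-tRNA synthetase, had 277 and 179 CPM there against 52.4 to 58.9 CPM in SNI (log2 fold change -1.17 ± 0.30). Il31ra, a cytokine receptor subunit, had 37.6 and 20.3 CPM there and also 24.5 CPM in sham replicate 5, against 3.43 to 8.81 CPM in SNI (log2 fold change -1.79 ± 0.50). Without sham replicates 3 and 4 the 4 values were -0.67, -0.86, -0.41 and -0.66. None of the annotated transcripts of Cdk8, Cmss1, Filip1l, Lars2, Il31ra and Mir6236 shares a run of 20 bases with those of CT010467.1 on either strand (0 of 6 genes). Other ribosomal RNA sequences, and parts of the 6 genes outside their annotated transcripts, were not compared. The origin of the reads on these genes was not tested.

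Of the 21 tested microglial markers, 16 were higher and 5 lower in SNI, with a median log2 fold change of 0.04 and a lowest value of -1.09. At an unadjusted p under 0.05, 1 of these markers was lower, where 0.906% of all genes tested were. Their summed level ran from 639.2 to 1079 CPM in sham, highest in replicate 3 with a median of 684.2, and from 607.8 to 721.5 CPM in SNI. The list score (mean over the list of centred log2 CPM) was -0.08 in sham replicate 3, within the sham range of -0.21 to 0.04. The markers as a list were thus not raised in that library. Tmem119, a marker of resident microglia, lay at 16.8 to 19.2 CPM in sham and 17.3 to 21.3 CPM in SNI (0.10 ± 0.08). Among the 215 genes lower in SNI at an unadjusted p under 0.05, sham replicate 3 was the highest of the 12 libraries for 46 (21.4%) and sham replicate 6 for 85 (39.5%), while over all genes tested these shares were 10.6% and 9.74%. A gene chosen for being lower in SNI tends to have a sham library on top by that choice.

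Markers of choroid plexus and ependyma, the epithelia that line the ventricles and make cerebrospinal fluid, were lower in SNI as a list. All 19 tested markers had a log2 fold change below 0, with a median of -1.18, and 7 had an unadjusted p under 0.05, where 0.906% of all genes tested were lower at that p. The list score was 3.32 in sham replicate 6 and 1.28 in sham replicate 1, against at most 0.31 in SNI. Without sham replicate 6 the median was -0.18, and without sham replicates 3, 4 and 6 it was -0.49. In the first library set alone it was -0.27, and in the second -1.87. With marker scores of cortical, septal and hypothalamic, choroid plexus and fibroblast lists as covariates (tissue scores) it was -0.03. The score of this list was itself a covariate, so a value near 0 was bound to follow and shows nothing about the list. Ttr, the transport protein that choroid plexus makes in large amounts, had 535 CPM in sham replicate 6, at most 1.30 CPM in the other 5 sham libraries and at most 4.66 CPM in SNI. Tmem72 had 24.2 CPM in that library against 0.376 to 0.782 CPM in the other sham libraries and 0.418 to 0.909 CPM in SNI. Slc4a5, a bicarbonate cotransporter of choroid plexus, had 15.1 CPM there against 0.0626 to 0.355 CPM in the other sham libraries and 0.183 to 0.308 CPM in SNI. Its log2 fold change of -2.76 ± 0.94 became 0.17 without that library, and that of Tmem72 went from -2.26 ± 0.83 to 0.30.

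The water channel gene Aqp1 went from a log2 fold change of -1.82 ± 0.61 to -0.11 without sham replicate 6. Calml4 differed in having 2 high libraries, 4.25 CPM in sham replicate 6 and 1.67 CPM in replicate 1. It had 0.0686 to 0.251 CPM in the other sham libraries and 0.0771 to 0.372 CPM in SNI. Its log2 fold change was -2.32 ± 0.65, and -1.38 without sham replicates 3, 4 and 6. Steap1, a metalloreductase gene, had 2.84 CPM in sham replicate 6 and 0.407 to 0.817 CPM in the other sham libraries, against 0.133 to 0.531 CPM in SNI (-1.50 ± 0.35, and -0.76 without replicate 6). Of the 19 markers, 2 were at 0 in at least 1 of the 12 libraries. In bulk tissue fewer cells of a type and less RNA per cell cannot be told apart, and the part of choroid plexus tissue in the other genes that were highest in sham replicate 6 was not tested.

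**Figure D3:**
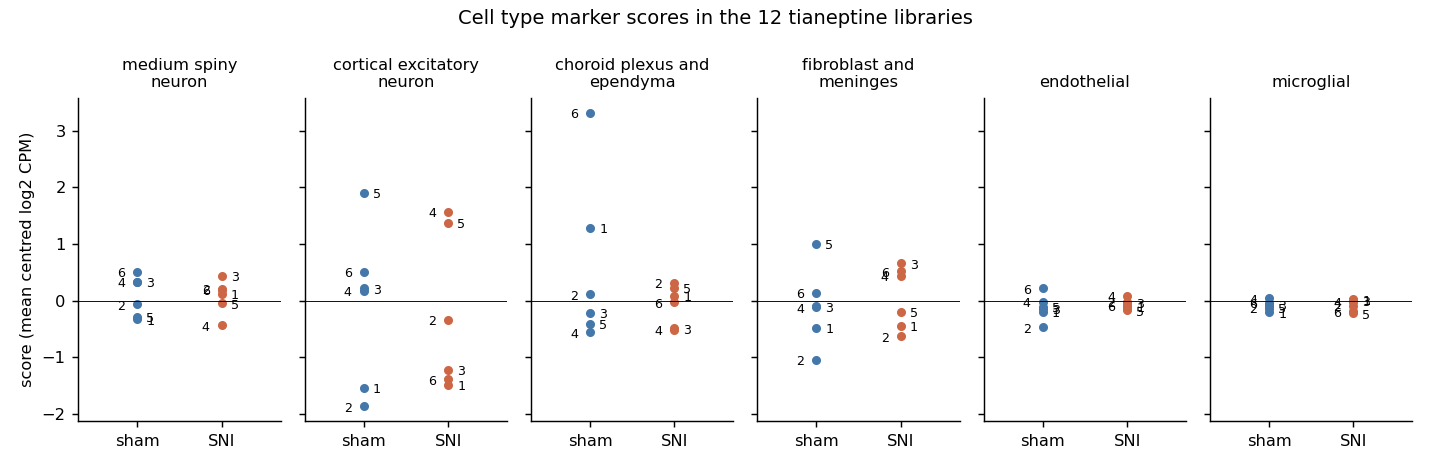
Scores of 6 cell type marker lists (mean over the list of log2 CPM, each gene centred on its mean over the 30 libraries) in the 6 sham and the 6 SNI libraries on tianeptine, with replicate numbers. The choroid plexus score is 3.32 in sham replicate 6 and 1.28 in sham replicate 1 while the SNI libraries reach 0.31, and the cortical score spreads from -1.86 to 1.90 within sham.

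Genes higher in SNI differed by small amounts. For 4 genes every SNI library was above every sham library (0.0169% of genes tested), and for 2 every SNI library was below (0.00843%). These 6 genes were singled out after their values were seen. Efnb1, the membrane ligand ephrin-B1, lay at 14.4 to 16.5 CPM in sham and at 16.7 to 19.7 CPM in SNI (log2 fold change 0.26 ± 0.10). With each library left out in turn its log2 fold change was 0.24 to 0.28, and in the first library set alone it was 0.26. Its direction was bound to hold in these subsets, since the gene was chosen for having every SNI library above every sham library. Slc15a4, a lysosomal peptide and histidine transporter, lay at 22.8 to 25.2 CPM in sham and 25.5 to 26.9 CPM in SNI (0.12 ± 0.05). Map4k4, a kinase upstream of JNK, lay at 159 to 163 CPM in sham and 164 to 185 CPM in SNI (0.07 ± 0.05), and the predicted gene Gm17622 at 0.139 to 0.296 and 0.299 to 0.346 CPM.

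For both genes with SNI below sham throughout, the gap between the groups was narrower than the spread within them. Col6a6, a collagen VI chain, lay at 1.31 to 3.51 CPM in sham, highest in replicate 3, and at 0.452 to 1.28 CPM in SNI. Its log2 fold change was -0.93 ± 0.27, and -0.68 without sham replicates 3 and 4. Ankrd35 lay at 14.7 to 17.8 CPM in sham and 11.4 to 14.3 CPM in SNI (-0.25 ± 0.10). All 6 genes had adjusted p-values of 1 after rounding in edgeR.

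Among the genes of smallest p on the higher side, none of which passed, the differences were small beside those of the lower genes. Cbx1, the heterochromatin protein HP1 beta, averaged 38.8 ± 1.32 CPM (SD, n = 6) in sham and 41.5 ± 1.62 CPM in SNI (log2 fold change 0.10 ± 0.03). B4galt4, a galactosyltransferase of the Golgi, averaged 21.6 ± 0.892 and 23.6 ± 1.33 CPM (0.13 ± 0.05). Tubd1, delta-tubulin of the centriole, averaged 6.76 ± 0.317 and 7.84 ± 0.718 CPM (0.22 ± 0.08). Rnf216, a ubiquitin ligase, averaged 60.3 ± 3.84 and 64.3 ± 3.16 CPM (0.09 ± 0.04), and Pdcd2l 14 ± 0.897 and 15.4 ± 0.856 CPM (0.13 ± 0.05). Car5a, a mitochondrial carbonic anhydrase (0.52 ± 0.17), and Cby3 (0.47 ± 0.17) lay at or under 1.43 CPM in every tianeptine library.

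Tmem267, Zfp366, Prkg2 and Mfng had the largest higher values among genes of at least 1 mean log2 CPM and an unadjusted p under 0.05. Predicted models were left aside. Tmem267 averaged 12.7 ± 1.92 CPM in sham and 17.2 ± 5.68 CPM in SNI (log2 fold change 0.44 ± 0.21), with SNI replicates 1, 2 and 6 at 18.7, 24.2 and 22.8 CPM and the other 3 within the sham range. Zfp366, a zinc finger repressor, averaged 5.74 ± 0.996 and 7.24 ± 1.09 CPM (0.34 ± 0.13). Prkg2, the cGMP-dependent kinase II, averaged 10.8 ± 1.55 and 13.5 ± 2.11 CPM (0.32 ± 0.13). Mfng, a glycosyltransferase that modifies Notch, averaged 4.55 ± 0.614 and 5.49 ± 0.603 CPM (0.27 ± 0.13).

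The opioid genes, the system on which tianeptine acts, overlapped between SNI and sham. Oprm1 lay at 55.8, 81.4, 68.8, 53.2, 82.9 and 71.9 CPM in sham replicates 1 to 6. In SNI replicates 1 to 6 it lay at 79.1, 79.1, 70.9, 65.1, 91.5 and 81.1 CPM. Sham replicates 1 and 4 were the lowest of the 12 and SNI replicate 5 the highest, with the rest of the libraries mixed. The log2 fold change was 0.17 ± 0.14, and its 95% interval ran from -0.11 to 0.46.

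Oprk1, the receptor of dynorphin, averaged 63.3 ± 16.6 CPM in sham and 67.3 ± 15.4 CPM in SNI (log2 fold change 0.09 ± 0.24). Oprd1, the delta receptor, averaged 27.4 ± 6.68 and 27.4 ± 5.94 CPM, with a log2 fold change of 0.00 ± 0.19. For Oprl1, the nociceptin receptor, the averages were 44.7 ± 10.3 and 42.2 ± 4.63 CPM (-0.07 ± 0.14). Of the 4 opioid receptors 3 were higher and 1 lower, with a median log2 fold change of 0.05. The interval of each receptor excluded a 2-fold change, the widest being that of Oprk1 at -0.41 to 0.59.

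Peptide precursors varied more between animals than between groups. Penk, the enkephalin precursor, averaged 770 ± 219 CPM in sham and 794 ± 253 CPM in SNI (log2 fold change 0.05 ± 0.24). Pdyn, the dynorphin precursor, averaged 236 ± 71.3 and 262 ± 65.5 CPM (0.17 ± 0.33). Pnoc, which encodes nociceptin, had 15.4 CPM in sham replicate 1 and 2.67 to 5.14 CPM in the other sham libraries, against 1.61 to 5.69 CPM in SNI (-0.46 ± 0.46). Pomc stayed at or under 1.85 CPM in all 12. Downstream, 10 of 26 tested G protein, RGS, kinase and arrestin genes were higher and 16 lower, with a median of -0.01 and Rgs7 at -0.09 ± 0.08. In the cAMP pathway 13 of 27 were higher, with a median of -0.01 and Creb1 at 0.09 ± 0.08. No gene of these opioid and cAMP lists had an unadjusted p under 0.05.

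**Figure D4:**
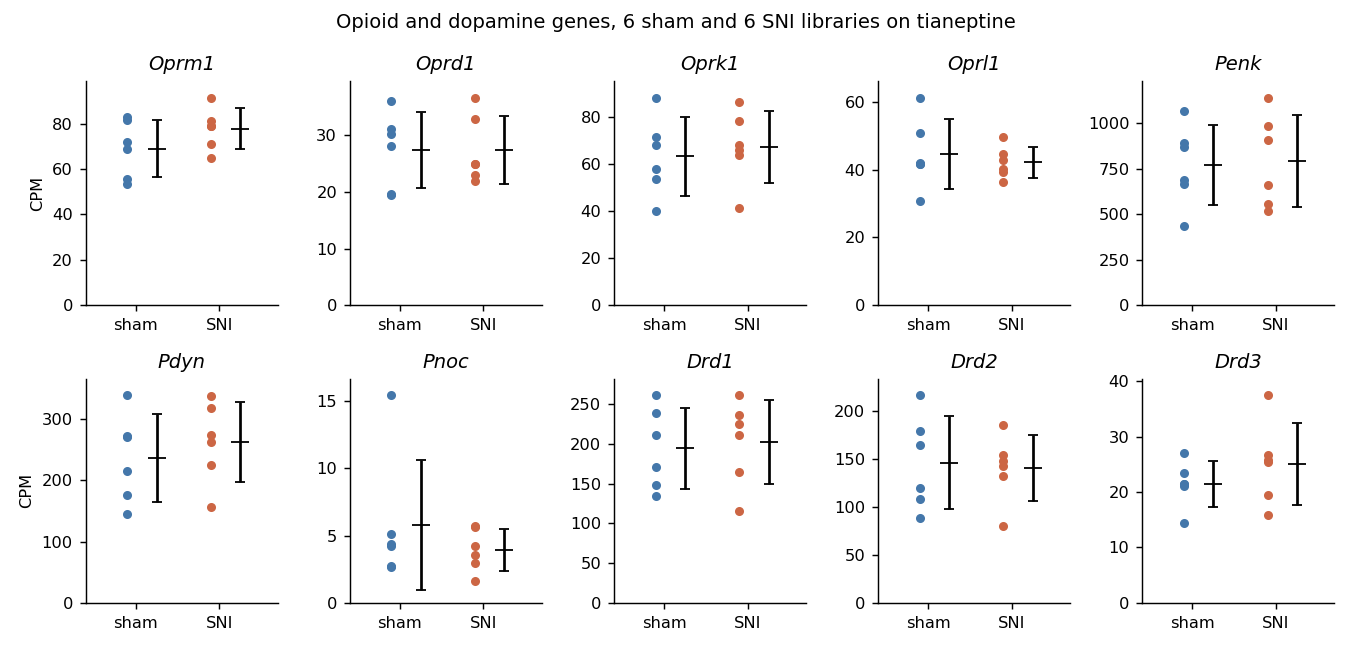
CPM of 4 opioid receptor genes, 3 opioid peptide genes and 3 dopamine receptor genes in the 6 sham and the 6 SNI libraries on tianeptine, with the mean and SD of each group as bars. The 2 groups overlap in every panel, and the Pnoc value of 15.4 CPM in sham replicate 1 stands alone.

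Dopamine receptor genes did the same. Drd1, of the direct pathway, averaged 194 ± 50.8 CPM in sham and 202 ± 53.1 CPM in SNI (log2 fold change 0.06 ± 0.32), and Drd2, of the indirect pathway, 147 ± 48.7 and 141 ± 34.5 CPM (-0.06 ± 0.29). Drd3 averaged 21.5 ± 4.10 and 25.1 ± 7.39 CPM (0.23 ± 0.28). Of the 28 medium spiny neuron markers 12 were higher and 16 lower, with a median of -0.02, and 0 had an unadjusted p under 0.05. Without sham replicates 3, 4 and 6 this median was 0.30 and the log2 fold change of Drd2 was 0.42; those 3 libraries had the highest sham scores of the list. Among 11 monoamine synthesis, transport and breakdown genes 7 were lower, with a median of -0.15. Tph2, the neuronal tryptophan hydroxylase, was the 1 with an unadjusted p under 0.05 (-0.58 ± 0.28, 0.467 ± 0.182 CPM in sham and 0.328 ± 0.152 CPM in SNI), and Th lay at -0.20 ± 0.21.

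Immediate early genes, which report recent neuronal activity, spread widely within both groups. Fos lay at 25.2, 15.1, 22.9, 7.23, 9.79 and 17.9 CPM in sham replicates 1 to 6 and at 2.58, 20.5, 11.5, 30.3, 24.8 and 7.26 CPM in SNI replicates 1 to 6. The lowest and the highest of the 12 libraries were both SNI libraries, and the log2 fold change was -0.01 ± 0.48. Of 31 immediate early genes 17 were higher and 14 lower, with a median of 0.01. Ier2 stood at 0.27 ± 0.29 and Nr4a3 at 0.28 ± 0.36. Bdnf, the neurotrophin that cortical afferents supply to striatum, was above 9 CPM in sham replicate 5 (11.7) and SNI replicates 4 and 5 (12.5 and 9.58) and at 0.877 to 4.15 CPM in the other 9 libraries (0.66 ± 0.67). These 3 libraries also had the highest scores of cortical excitatory neuron markers, at 1.90, 1.57 and 1.37. Of those 18 markers 13 were higher in SNI, with a median of 0.14 that was 0.73 in the first library set and -0.75 in the second. With tissue scores as covariates, the cortical score among them, the log2 fold change of Bdnf was 0.29. The part of cortical tissue in the values of Bdnf was not tested.

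Clock genes were close to level, with 11 of 19 higher and a median of 0.01. Rora, a nuclear receptor that drives Bmal1, was the 1 clock gene with an unadjusted p under 0.05 (57.4 ± 19.6 CPM in sham, 47.8 ± 10.6 CPM in SNI, -0.24 ± 0.10). Ciart, a circadian repressor, averaged 11 ± 1.01 and 9.77 ± 1.07 CPM (-0.17 ± 0.11), and Dbp 122 ± 13.6 and 116 ± 15.8 CPM (-0.07 ± 0.14).

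Gria1, an AMPA receptor subunit, averaged 955 ± 84.8 CPM in sham and 940 ± 76.8 CPM in SNI, with a log2 fold change of -0.02 ± 0.09 and an interval of -0.20 to 0.15. Grin1, the obligatory NMDA receptor subunit, averaged 415 ± 16.5 and 387 ± 29.1 CPM (-0.10 ± 0.07). In the list of AMPA, kainate and NMDA receptors with their scaffolds 20 of 38 genes were higher (median 0.01), and in the GABA list 13 of 20 (median 0.02, Gabra2 at 0.17 ± 0.13). Grm8, a presynaptic glutamate receptor, averaged 9.87 ± 3.74 and 6.83 ± 2.45 CPM (-0.54 ± 0.30). The cannabinoid receptor gene Cnr1 averaged 153 ± 88.3 and 116 ± 45.9 CPM (-0.26 ± 0.27). Voltage-gated sodium and calcium channel genes leaned lower, with 4 of 23 higher, but their median was -0.04 and 0 of them had an unadjusted p under 0.05. Cacna2d1, the calcium channel subunit that gabapentin binds, went the other way at 0.22 ± 0.19 (163 ± 73.3 and 180 ± 33.6 CPM).

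Vascular genes did not differ beyond their spread. Of 18 endothelial markers 13 were higher, with a median log2 fold change of 0.06, and 0 had an unadjusted p under 0.05. Flt1 averaged 64.8 ± 14.5 CPM in sham and 70.3 ± 4.17 CPM in SNI (0.13 ± 0.11). Tie1 stood at 0.17 ± 0.14, the tight junction gene Cldn5 at 0.13 ± 0.15 and the VEGF receptor gene Kdr at 0.04 ± 0.12. The endothelial median was 0.19 in the first library set and -0.19 in the second, so the direction differed between sets. Of 13 basement membrane genes 10 were higher (median 0.04, Lamc1 at 0.04 ± 0.07), and of 20 fibroblast and meninges markers 16 (median 0.09). Fibroblast markers stood at 0.54 in the first set and -0.50 in the second. Cxcl12, a chemokine of vessels and meninges, averaged 40.4 ± 8.85 and 48.0 ± 2.88 CPM (0.25 ± 0.14).

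Genes of inflammation and injury gave no common direction. Of 14 glial and neuronal injury genes 7 were higher and 7 lower. At an unadjusted p under 0.05, 2 of them were lower and 0 higher (0.906% and 0.303% over all genes tested). Cd44, a hyaluronan receptor of reactive glia, averaged 4.95 ± 3.62 CPM in sham, with 12 CPM in replicate 5, and 2.99 ± 1.53 CPM in SNI (-0.66 ± 0.29). Lcn2, lipocalin 2, had 3.80 CPM in sham replicate 6, at most 0.0696 CPM in the other 5 sham libraries and 0.0382 to 0.148 CPM in SNI (-2.93 ± 1.32, and 1.21 without sham replicates 3, 4 and 6). Of 16 genes of MHC antigen presentation 14 were lower, with a median of -0.15 that was -0.01 without sham replicate 6 and 0.08 in the first library set alone. Nlrc5, the activator of MHC class I genes, had 4.00 CPM in that library and 0.720 to 1.74 CPM in the other sham libraries, against 0.617 to 1.55 CPM in SNI (-0.48 ± 0.38). B2m, the class I light chain, averaged 20.5 ± 3.46 and 18.9 ± 1.76 CPM (-0.12 ± 0.16), and S100a9, a neutrophil gene, was highest in sham replicate 6 at 0.908 CPM (-1.18 ± 0.59). Of 30 interferon response genes 12 were higher, with a median of -0.03 that was 0.18 in the first library set and -0.27 in the second.

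Signs of cell stress and energy metabolism stayed near 0. All 3 metallothionein genes had a log2 fold change between -0.09 and 0, with Mt2, which responds to metals and glucocorticoids, at 30.0 ± 6.55 CPM in sham and 27.8 ± 4.51 CPM in SNI (-0.09 ± 0.08). Of 82 nuclear oxidative phosphorylation genes 65 were lower with a median of -0.02, and all 13 transcripts of the mitochondrial genome were higher with a median of 0.08 that was -0.06 in the second library set. The score of the mitochondrial transcripts spread from -0.63 to 0.51 within sham and from -0.76 to 0.44 within SNI. Of 86 cytosolic ribosomal protein genes 60 were higher, with a median of 0.01. No gene of these lists had an unadjusted p under 0.05.

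**Figure D5:**
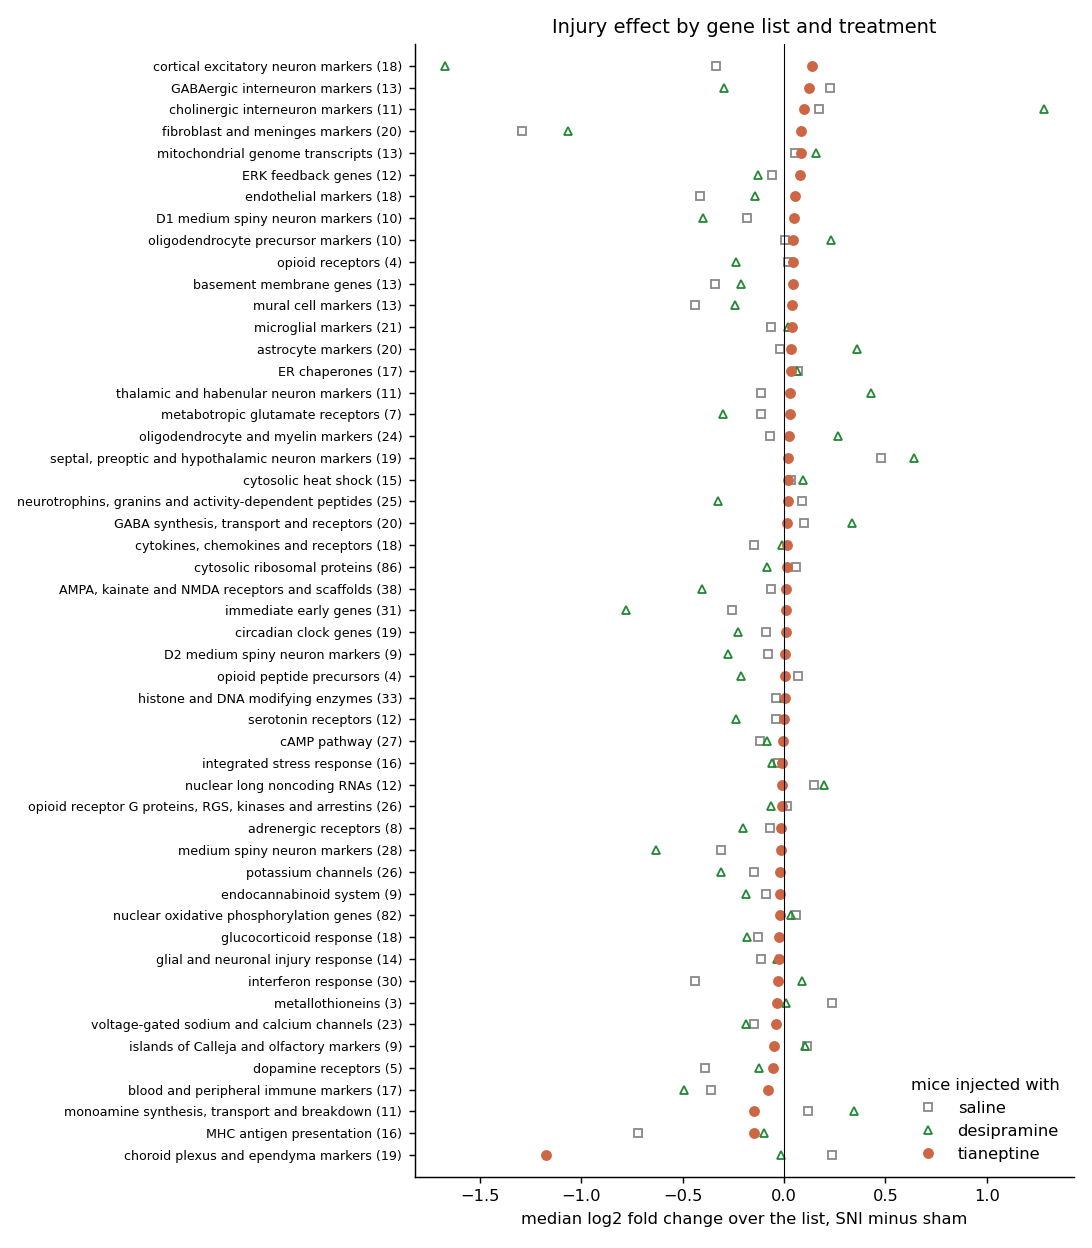
Median log2 fold change of SNI against sham for each of 51 gene lists (number of genes tested in brackets) in mice on tianeptine (filled circles), saline (open squares) and desipramine (open triangles). On tianeptine every list but the choroid plexus and ependyma markers, at -1.18, has a median between -0.15 and 0.14.

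Whether the injury effect on tianeptine differed from that on saline was tested as the difference between the 2 effects, which share no library. No gene passed (0 of 23736, 0%, edgeR, smallest adjusted p 0.989), and 997 genes (4.20%) had an unadjusted p under 0.05. DESeq2 and limma-voom also called 0. Among the named genes Zfp366 had the smallest p, with a log2 fold change of 0.34 ± 0.13 on tianeptine, -0.52 ± 0.14 on saline and a difference of 0.86 ± 0.19. Mt2 stood at -0.09 ± 0.08 on tianeptine and 0.46 ± 0.09 on saline (difference -0.55 ± 0.12). The basement membrane laminin chain Lamc1 stood at 0.04 ± 0.07 and -0.37 ± 0.07 (0.41 ± 0.10), and Tbx2, a T-box repressor, at 0.18 ± 0.10 and -0.45 ± 0.11 (0.63 ± 0.15). Among the vascular genes the differences were 0.58 ± 0.18 for Kdr, 0.61 ± 0.17 for Flt1 and 0.59 ± 0.22 for Cldn5. List medians on tianeptine and on saline were 0.06 and -0.41 for endothelial markers, 0.09 and -1.29 for fibroblast markers, and -0.15 and -0.72 for MHC genes. Saline sham libraries stood apart in 2 of these lists: the fibroblast score was 2.67 in saline sham replicate 3 and -0.74 to 0.41 in the other 4, and the MHC score was at least 1.45 in saline sham replicates 2 and 3 and -0.59 to 0.17 in the other 3. Leaving out saline sham replicate 3 gave a fibroblast median of -0.03 on saline, and leaving out both replicates gave -0.04, an MHC median of 0.17 and an endothelial median of -0.24. The count for the difference was then again 0 genes, with 825 and 1336 at an unadjusted p under 0.05. With an adjusted p of 0.989 for each gene named in this paragraph, none of these differences is shown.

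Against desipramine the outcome depended on the tool and on single libraries. The edgeR test called 0 genes (0%), with a smallest adjusted p of 0.0627 and 4580 genes (19.3%) at an unadjusted p under 0.05, while DESeq2 called 976 and limma-voom 0. Leaving out sham replicate 3 gave 86 edgeR calls and leaving out SNI replicate 6 gave 576, while each of the other 10 tianeptine libraries left out in turn gave 0. The leading genes had values nearer 0 on tianeptine than on desipramine. Gldn, gliomedin, stood at -0.12 ± 0.21 on tianeptine and 1.76 ± 0.28 on desipramine (difference -1.87 ± 0.35). Igfbp4, a binding protein of insulin-like growth factors, stood at 0.13 ± 0.16 and -1.11 ± 0.20 (1.24 ± 0.25). Tnfsf13b, the B cell cytokine BAFF, stood at -0.14 ± 0.17 and 1.24 ± 0.21 (-1.37 ± 0.27), Zfp641 at -0.06 ± 0.05 and 0.36 ± 0.06 (-0.43 ± 0.08), and the oligoadenylate synthetase gene Oas1c at -0.26 ± 0.14 and 0.88 ± 0.18 (-1.14 ± 0.23). No desipramine library belongs to the second set. List medians on tianeptine and on desipramine were 0.01 and -0.78 for immediate early genes, -0.02 and -0.63 for medium spiny neuron markers and 0.14 and -1.67 for cortical excitatory neuron markers. Desipramine SNI replicate 2 stood apart, with a medium spiny neuron score of -2.14 against -0.75 to 0.39 in the other 3 and an immediate early gene score of -1.17 against -0.55 to 0.03. Leaving it out gave desipramine medians of -0.54, -0.33 and -1.74 for these 3 lists, 0 genes passing, 2830 at an unadjusted p under 0.05 and an adjusted p of 0.263 for each of the 5 named genes. Those cortical markers spread within the tianeptine groups from 350.2 to 2026 summed CPM in sham and from 450.5 to 1733 in SNI.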

How the data were processed

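The submitters' processing notes name Trim Galore, HISAT2, SAMtools and featureCounts as tools and mm10 as the build. Tool versions, strand setting and annotation release were not given in the sources used here. A deposited table holds whole-number counts per gene and library, and the authors' FPKM table was not used. All 30 libraries were fitted together with edgeR 4.0.16 (R 4.3.3, limma 3.58.1): genes kept by filterByExpr (23736, 99.925% of counts), TMM scaling, a robust quasi-likelihood model with 6 groups and the library set, and 23 residual degrees of freedom. P-values are 2-sided and adjusted over all genes tested (threshold 0.05). CPM are the deposited counts scaled to library size with TMM factors (cpm function of edgeR), and a list's score in a library is the mean over its genes of log2 CPM (prior count 2), centred over the 30 libraries. Symbols and positions are from GENCODE M21 (mm10), where 54349 of 55401 gene IDs matched exactly. DESeq2 1.42.0 was an alternative. No 2 libraries of a group were near copies (smallest chi-square per degree of freedom 6.89).

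The comparison, the 51 gene lists and the rule for named genes were chosen with earlier results of these data known. The rule covers genes that are no predicted model. It takes 10 of smallest p per direction and 5 per difference of injury effects. It takes 4 of largest log2 fold change per direction at a mean log2 CPM of 1 or more and an unadjusted p under 0.05. It also takes 4 of smallest p per list and a short fixed set that includes Oprm1, Drd1 and Fos. Not all of them are named. Rny1, Rny3, Lars2, CT010467.1, Ttr, Efnb1, Slc15a4, Map4k4, Gm17622, Col6a6 and Ankrd35 were chosen after their values were seen. So were the list of structural RNA genes and the alternatives that leave out sham replicates 3 and 4, or 3, 4 and 6, saline sham replicates 2 and 3, or desipramine SNI replicate 2.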

Additional observations from a re-analysis of the deposited data

Results flagged for a closer look

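In 24 of 180 groups of 6 libraries examined (85 genes named in the text and the scores of 5 marker lists, sham and SNI separately), 1 library lay far from the other 5, its gap to the nearest being more than 0.625 of the whole range. For normally distributed values of genes not chosen by their values, about 1 in 20 such groups would be flagged, or 9 here. Many of the 85 genes were chosen by their values in these same libraries, and CPM can be skewed. The 24 can therefore not be set against that number. Of the 24, 7 concerned sham replicate 3, 7 sham replicate 6 and 5 SNI replicate 4, and the genes share libraries, so they are not independent.

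Sham replicate 3 was far above the other sham libraries for Cdk8 at 1294 CPM, Mir6236 at 163.6 CPM, Rpph1 and Ccnb1ip1 at 5.84 CPM each, Col6a6 at 3.51 CPM, Rn7s1 at 2.57 CPM and Car5a at 0.383 CPM. Sham replicate 6 was far above for Ttr at 535 CPM, Tmem72 at 24.2 CPM, Slc4a5 at 15.1 CPM, Aqp1 at 11.3 CPM, Nlrc5 at 4.00 CPM, Lcn2 at 3.80 CPM and Steap1 at 2.84 CPM. Among the other sham libraries, replicate 5 stood alone for Cd44 at 12 CPM and Bdnf at 11.7 CPM, and replicate 1 for Pnoc at 15.4 CPM.

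SNI replicate 4 was far above the other SNI libraries for Map4k4 at 185.1 CPM, B2m at 22.2 CPM, Ciart at 11.9 CPM, Tph2 at 0.627 CPM and Rn7s2 at 0.119 CPM. SNI replicate 1 was far above for Ttr at 4.66 CPM. SNI replicate 6 was far below the other SNI libraries for Efnb1 at 16.7 CPM, while still above all sham libraries.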

How the results depend on the processing

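No gene passed in edgeR for injury on tianeptine under any of the edgeR and limma-voom alternatives, and DESeq2 called 14. The count at an unadjusted p under 0.05 was 853 with no filter beyond 10 counts, 129 with a mean CPM of at least 1 and 963 in the second library set alone, which has 2 mice a group. It was 245 to 482 with each library left out. For the difference from desipramine DESeq2 called 976 genes, and leaving out single libraries gave 0 to 576. The replicate number as a block, in place of the library set, gave 0 genes passing and 238 unadjusted, and 0 and 245 in the 12 tianeptine libraries alone. No sham library correlated best with the SNI library of its own number, and same-numbered libraries deviated together with correlations of 0.039 to 0.187 over 5000 genes, so the numbers are not taken to pair mice.

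Of 2242 log2 fold changes of the 85 named genes under 27 alternatives, 2146 kept their direction and side of the threshold, 87 turned (34 genes, none past the threshold) and 9 passed it, all in DESeq2. Oprd1, near 0, turned to -0.0043 with RLE size factors, -0.0046 with a mean CPM of at least 1, -0.0027 in DESeq2, -0.0086 in limma-voom, -0.0033 without the library set, -0.026 with tissue scores, -0.0029 in the 12 libraries alone and -0.12 in the second set, and ran from -0.081 to 0.079 with libraries left out. Fos was 0.0013 with no filter, 0.087 with tissue scores, 0.0044 in the 12 libraries and 0.21 in the second set (libraries left out, -0.31 to 0.22). Bdnf was -0.30 in limma-voom and -0.52 in the second set (-0.36 to 1.03). Drd2 was 0.00046 under the replicate block, 0.057 with tissue scores, 0.10 without sham replicates 3 and 4 and 0.42 also without 6 (-0.18 to 0.12). In the first set alone Slc4a5 was 0.60, Ttr 2.73, Cnr1 0.13 and B2m 0.029. With tissue scores Slc4a5 was 0.21, Tmem72 0.18, Ttr 0.66, Lcn2 1.11 and Nlrc5 0.015. Slc4a5, Tmem72 and Ttr belong to the choroid plexus list, whose score is among those covariates. Without sham replicates 3, 4 and 6 Slc4a5 was 0.0069, Tmem72 0.33, Ttr 0.62, Lcn2 1.21, Nlrc5 0.065, Dbp 0.061, S100a9 0.77. With libraries left out Slc4a5 ran from -3.08 to 0.17, Tmem72 from -2.57 to 0.30, Ttr from -6.90 to 1.22, Oprl1 from -0.14 to 0.023, Pnoc from -0.68 to 0.056, Penk from -0.035 to 0.16, Pomc from -0.085 to 0.0092, Drd1 from -0.030 to 0.18, Ier2 from -0.086 to 0.42, Gria1 from -0.063 to 0.014 and Kdr from -0.019 to 0.11. In the second set alone Rny1 was 0.10, Oprl1 0.17, Pnoc 0.27, Pomc 0.043, Creb1 -0.025, Drd1 -0.086, Ier2 -0.042, Gria1 0.13, Cacna2d1 -0.26, Kdr -0.18, Flt1 -0.15, Tie1 -0.082, Cldn5 -0.12, Lamc1 -0.041, Cxcl12 -0.091, Tmem119 -0.046, Mt2 0.018, Gldn 0.26, Zfp641 0.055 and Tnfsf13b 0.079. The cause of these turns was not tested. The saline median of the MHC genes turned to 0.17 without saline sham replicates 2 and 3. Of 1404 list medians under alternatives, 32 moved by at least 1 SD. Genes under about 1 CPM, such as Rpph1 in SNI, rest on few counts.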

Other observations

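Other neuron and glia marker lists, not described above, had medians of -0.05 to 0.12 for SNI against sham on tianeptine over all libraries. Some of them moved with the libraries used. Of 10 markers of direct-pathway and 9 of indirect-pathway medium spiny neurons, 8 and 5 were higher in SNI, with median log2 fold changes of 0.05 and 0.01, which were 0.33 and 0.29 without sham replicates 3, 4 and 6. Of 11 cholinergic interneuron markers 8 were higher (median 0.10), although the median was -0.18 in the first library set and 0.57 in the second. Of 13 GABAergic interneuron markers 9 were higher (median 0.12), among them Sst, the somatostatin gene, at 138 ± 29.5 CPM in sham and 151 ± 33.7 CPM in SNI (SD, n = 6, log2 fold change 0.12 ± 0.10 SE). Astrocyte markers were higher for 15 of 20 (median 0.04), oligodendrocyte and myelin markers for 19 of 24 (median 0.02) and oligodendrocyte precursor markers for 9 of 10 (median 0.05). No gene of these 7 lists had an unadjusted p under 0.05. Of 11 thalamic and habenular neuron markers 7 were higher (median 0.03, and -0.23 in the second set), and 1 of them, Rora, was lower at an unadjusted p under 0.05. Among 19 marker genes of septal, preoptic or hypothalamic neurons 11 were higher and 0 had such a p. Their median was 0.02, with -0.25 in the first library set and 0.41 in the second. Of 9 tested islands of Calleja and olfactory markers 4 were higher, 5 lower and 0 had such a p. The median of these markers was -0.05, with -0.02 in the first set and 0.29 in the second.

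Among the 287 genes at an unadjusted p under 0.05, 118 were predicted models. By annotated type, 22 of 1883 tested antisense genes were lower in SNI and 2 higher, 18 of 1498 lincRNA genes lower and 7 higher, 19 of 1715 processed pseudogenes lower and 17 higher, and 124 of 16225 protein-coding genes lower and 35 higher, where 0.906% of all genes tested were lower and 0.303% higher.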
